A study of Homo sapiens with 24 samples.

Results

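The lysyl oxidase family was examined here as the 5 human genes LOX, LOXL1, LOXL2, LOXL3 and LOXL4, found by symbol among the 23106 genes counted in each of 24 RNA-seq libraries. All 5 genes were present in the counts and all 5 passed the filter on low counts in each cell line. The family was chosen by the LOX result itself, since LOX was called in opposite directions by hypoxia in different lines, so the hypoxia values of LOX are given as a description without a test. The libraries came from 4 human cancer cell lines, T47D from breast, PC3 from prostate, HCT116 from large intestine and A549 from lung. Each line contributed 3 libraries from cells kept in normoxia (21% oxygen) and 3 from cells kept in hypoxia (0.5% oxygen for 16 h). No line carried an engineered change, and each was grown in medium with serum, with F12K for A549 and PC3 cells, McCoy's 5a for HCT116 cells and DMEM for T47D cells. A difference between lines therefore cannot be told apart from a difference in medium, except between A549 and PC3 cells. The labels do not say whether the 3 replicates were separate cultures, so p values measure the spread between these libraries only, which may be technical.

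Lysyl oxidases are secreted, copper-dependent amine oxidases. They oxidize lysine and hydroxylysine side chains of collagen and elastin to aldehydes, using molecular oxygen, and these aldehydes then form the covalent cross-links that stiffen the extracellular matrix. LOX and LOXL1 carry a propeptide that is removed outside the cell, whereas LOXL2, LOXL3 and LOXL4 carry scavenger receptor cysteine-rich domains ahead of the catalytic domain. LOX and LOXL2 are well-known hypoxia-inducible genes, and both have been studied for their part in tumor invasion and metastasis.

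The promoters of LOX and LOXL4 are shown because they differ in the hypoxia-response core motif, to which HIF (hypoxia-inducible factor, the transcription factor that is stabilized when oxygen is low) binds. The motif was searched as ACGTG or GCGTG on both strands, in the 250 bases before each start site given by RefSeq on GRCh38.p14. Capitals mark each match. A match on the opposite strand reads CACGT or CACGC. The LOX window lies at chr5:122078260-122078509 and the LOXL4 window at chr10:98268195-98268444, both on the minus strand and both written 5′ to 3′ toward the gene.
LOX: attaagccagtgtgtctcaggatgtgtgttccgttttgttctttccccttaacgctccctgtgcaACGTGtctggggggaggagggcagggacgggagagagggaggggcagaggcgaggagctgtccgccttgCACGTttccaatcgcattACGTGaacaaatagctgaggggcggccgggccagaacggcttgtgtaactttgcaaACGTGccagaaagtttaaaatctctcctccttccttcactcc
LOXL4: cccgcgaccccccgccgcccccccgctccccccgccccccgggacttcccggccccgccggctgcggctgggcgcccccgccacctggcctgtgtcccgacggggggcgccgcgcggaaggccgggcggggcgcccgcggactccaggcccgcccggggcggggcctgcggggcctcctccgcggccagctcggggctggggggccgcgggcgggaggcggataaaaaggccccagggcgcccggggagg

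The LOX window held 4 matches, all ACGTG, with first bases at -185, -116, -98 and -42 relative to the start site. Of 35116 promoter windows of the same length, 43.2% held at least 1 match and 3.22% held at least 4. LOX has 2 further start sites in the table, and the window of each held 1 ACGTG and 1 GCGTG. These 2 windows overlap, and the 2 matches are the same bases in both. The windows of LOXL4 and LOXL1 held neither motif. Of the 2 LOXL3 windows, 1 held a single GCGTG at -246 and the other held neither. LOXL2 is not in the table. A match is a description of the sequence and not a bound site.

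Library totals ranged from 22698584 to 62850747 counts (median, 56109796), so that 3 counts, taken as the floor of a library, correspond to 0.0477 to 0.132 CPM (counts scaled to a common library size; intervals and floors here cover counting error only). A gene was called where edgeR gave it an adjusted p below 0.05 together with more than 1.2-fold change. Among all genes tested, hypoxia was called to raise 6.55% and lower 6.69% in T47D, raise 16.6% and lower 15.7% in PC3, raise 23.3% and lower 27.0% in HCT116, and raise 17.6% and lower 17.8% in A549. The hypoxia effect differed between lines for 18.3% of genes. With scaling to total counts, the share of calls that were upregulated went from 49.5% to 32.1% in T47D cells and to 33.9% from 49.8% for A549, while the median over all genes, as a log2 fold change, went from -0.01 to -0.12 and to -0.13. No call of LOXL1 to LOXL4 changed with that scaling. The T47D count of 1864 called genes rests on single libraries, since it was 199 without normoxia replicate 1, 407 without normoxia replicate 2, 878 without hypoxia replicate 1, 1030 without hypoxia replicate 2, 2816 without normoxia replicate 3 and 3305 without hypoxia replicate 3.

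**Figure D1:**
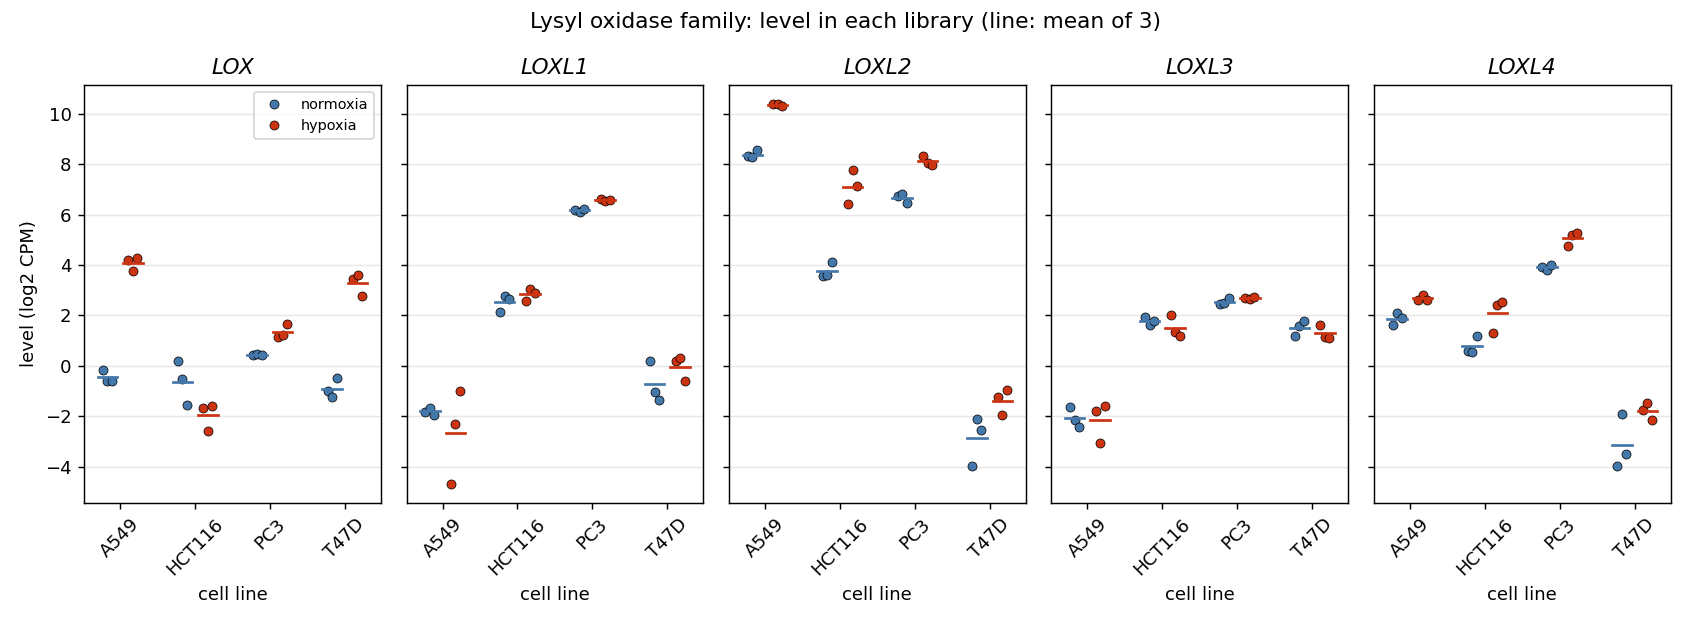
Level of each member in each library (log2 CPM after TMM normalization with a prior count of 2, y axis) by cell line (x axis), with normoxia in blue, hypoxia in red and a line at the mean of 3 libraries. LOX lies higher in hypoxia in A549, PC3 and T47D cells and lower in HCT116 cells, while the means of LOXL2 and LOXL4 lie higher in hypoxia in each line, although neither was called in T47D cells.

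LOX, the founding member, cross-links fibrillar collagen and elastin. In A549 cells, its level in normoxia was 0.857, 0.626 and 0.628 CPM in replicates 1 to 3, and in hypoxia 18.2, 13.5 and 19.3 CPM. In T47D cells, it was 0.461, 0.390 and 0.671 CPM in normoxia and 10.9, 12.02 and 6.79 CPM in hypoxia. In both lines, each hypoxic library lay far above each normoxic library. The log2 fold change was 4.60 (SE = 0.215) in A549 cells and 4.26 (SE = 0.345) in T47D cells, which are 24.2-fold and 19.2-fold. A bulk level cannot tell a change in every cell from a change in some of them.

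In PC3 cells, LOX went from 1.31, 1.35 and 1.30 CPM in normoxia to 2.20, 2.32 and 3.12 CPM in hypoxia. The oxygen states did not overlap, but the log2 fold change of 0.93 (SE = 0.236) was smaller than in A549 or T47D cells. PC3 cells had the highest LOX level of the 4 lines in normoxia and only the third highest in hypoxia.

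In HCT116 cells, LOX was lower in hypoxia. Its counts were 60, 30 and 19 in normoxia and 17, 7 and 7 in hypoxia, which correspond to 1.11, 0.663 and 0.2997 CPM and to 0.274, 0.126 and 0.288 CPM. The states did not overlap, but the lowest normoxic library and the highest hypoxic library were close. The exact Poisson 95% interval of the former ran from 0.180 to 0.468 CPM, and that of the latter, the shallowest HCT116 library, from 0.116 to 0.593 CPM, so that the gap between them was within counting error. The log2 fold change was -1.64 (SE = 0.632), and without normoxia replicate 1, the library with the highest level, it was -1.06. HCT116 was also the line nearest to the threshold by which LOX was chosen, with an adjusted p of 0.0441 in edgeR. Since LOX was chosen for calls in opposite directions, this value is part of the choice and no test. With genes under a mean count of 50 left out, LOX was not tested in HCT116 cells.

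SRFBP1, which encodes a protein that binds serum response factor, overlaps LOX on the opposite strand over 138 bases of exon (2.47% of the exon length of LOX). SRFBP1 was downregulated in A549, HCT116 and PC3 cells, with log2 fold changes of -0.60, -1.55 and -0.56 (adjusted p, 0.00318, 0.000177 and 0.0206), and had a log2 fold change of -0.51 (adjusted p, 0.114) in T47D cells. In HCT116 cells, its level went from 23.2 CPM ± 1.54 to 8.04 CPM ± 1.70 (SD, n = 3). The strand setting of the counting is not given in the sources used here, and whether the 2 genes share counts was not tested.

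LOXL1, which acts mainly on elastin, was upregulated only in PC3 cells. Its PC3 level was 73.0, 68.1 and 75.1 CPM in normoxia and 97.7, 93.8 and 94.8 CPM in hypoxia, without overlap, with a log2 fold change of 0.38 (SE = 0.0878, adjusted p = 0.0111). This is 1.30-fold, on the highest LOXL1 level of the 4 lines, and with one fit of all 24 libraries it was not called (adjusted p = 0.414). In the other lines the states overlapped, and the log2 fold change was 0.28 (SE = 0.254, adjusted p = 0.367) in HCT116 cells, 0.61 (SE = 0.537, adjusted p = 0.465) in T47D cells and -0.30 (SE = 0.840, adjusted p = 0.805) in A549 cells. The A549 libraries held between 0 and 22 counts of LOXL1, and without hypoxia replicate 1, which held 0, the value there was 0.32. A call in PC3 cells alone does not show that the lines differed, since the test of the difference between lines gave an adjusted p of 0.683.

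LOXL2, which cross-links collagen IV of basement membranes among other substrates, was upregulated in A549, HCT116 and PC3 cells. In A549 cells, its level was 319, 309.7 and 376 CPM in normoxia and 1349, 1330.4 and 1276 CPM in hypoxia. In HCT116 cells, it was 11.8, 12.3 and 17.4 CPM in normoxia and 86.3, 217 and 142 CPM in hypoxia. In PC3 cells, it was 106, 113 and 88.5 CPM in normoxia and 322, 268 and 249 CPM in hypoxia. No hypoxic library overlapped a normoxic library of its line. The log2 fold change was 1.98 (SE = 0.117, adjusted p = 4.89e-07) in A549 cells, 3.40 (SE = 0.304, adjusted p = 1.85e-05) in HCT116 cells and 1.43 (SE = 0.126, adjusted p = 0.000219) in PC3 cells. HCT116 cells, in which LOX was lower in hypoxia, thus had a 10.6-fold higher LOXL2 level.

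In T47D cells, LOXL2 was close to the floor. Its level was 0.0243, 0.195 and 0.134 CPM in normoxia, from 1, 13 and 8 counts, and 0.388, 0.217 and 0.469 CPM in hypoxia, from 24, 14 and 25 counts. The hypoxic libraries were the higher ones, but the log2 fold change of 1.48 (SE = 0.710) was not called (adjusted p = 0.176). LOXL2 passed the filter in T47D cells mainly through hypoxia, as 3 hypoxic libraries and 1 normoxic library exceeded its limit. The hypoxia effect on LOXL2 differed between the 4 lines (adjusted p = 0.00198), and without replicate 2 of each group this was no longer so (adjusted p = 0.207).

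LOXL3, which acts on fibrillar collagen and fibronectin, was not called in any line, and its states overlapped in each. Its level lay between 5.48 and 6.53 CPM in the 6 PC3 libraries, between 2.26 and 4.06 CPM in HCT116 cells, between 2.12 and 3.39 CPM in T47D cells and between 0.0812 and 0.290 CPM in A549 cells. The log2 fold change was 0.11 (SE = 0.141, adjusted p = 0.570) in PC3 cells, -0.23 (SE = 0.307, adjusted p = 0.552) in HCT116 cells, -0.25 (SE = 0.316, adjusted p = 0.626) in T47D cells and 0.01 (SE = 0.613, adjusted p = 0.988) in A549 cells. The A549 value rests on 4 to 14 counts per library.

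LOXL4 was upregulated in the same lines as LOXL2, with smaller log2 fold changes. The difference between the 2 genes was not tested. In PC3 cells, its level was 15.2, 14.0 and 16.0 CPM in normoxia and 26.7, 37.04 and 38.4 CPM in hypoxia. In A549 cells, it was 3.02, 4.24 and 3.66 CPM in normoxia and 6.14, 7.01 and 6.15 CPM in hypoxia. In HCT116 cells, it was 1.46, 1.41 and 2.24 CPM in normoxia and 2.42, 5.36 and 5.68 CPM in hypoxia. The states did not overlap in these lines, although HCT116 hypoxia replicate 1 lay near the highest normoxic library. The log2 fold change was 1.15 (SE = 0.146, adjusted p = 0.00130) in PC3 cells, 0.82 (SE = 0.193, adjusted p = 0.00655) in A549 cells and 1.37 (SE = 0.362, adjusted p = 0.00712) in HCT116 cells. In one fit of all 24 libraries, the A549 call was lost (adjusted p = 0.0637).

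In T47D cells, LOXL4 had 1, 15 and 3 counts in normoxia and 16, 21 and 10 in hypoxia, with overlap between the states and a log2 fold change of 1.23 (SE = 0.783, adjusted p = 0.308). This value was 2.66 without normoxia replicate 2, which held 15 counts, and 0.85 without normoxia replicate 1. Only 1 normoxic and 2 hypoxic libraries exceeded the filter's limit. The hypoxia effect on LOXL4 was not shown to differ between lines (adjusted p = 0.668), nor was that on LOXL3 (adjusted p = 0.911).

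Leaving aside LOX, 3 of the 4 other members were called in PC3 cells, 2 in A549 cells, the same 2 in HCT116 cells and 0 in T47D cells, all of them upregulated. Of all genes tested, 16.6%, 17.6%, 23.3% and 6.55% were called upregulated in these lines, in the same order. In T47D cells, none of LOXL1 to LOXL4 reached an unadjusted p under 0.05, and DESeq2 called none either. The only alternative with a T47D call was one edgeR fit of all 24 libraries, in which LOXL2 was called (adjusted p = 0.0301, with a range from 0.0301 to 0.459 over 12 alternatives). Over the 4 members without LOX, the median log2 fold change was 0.42 in A549, 0.82 in HCT116, 0.77 in PC3 and 0.92 in T47D cells, beside medians of all genes tested from -0.03 to -0.01. Each of these medians includes members that were not called, and in T47D cells it rests on those alone.

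**Figure D2:**
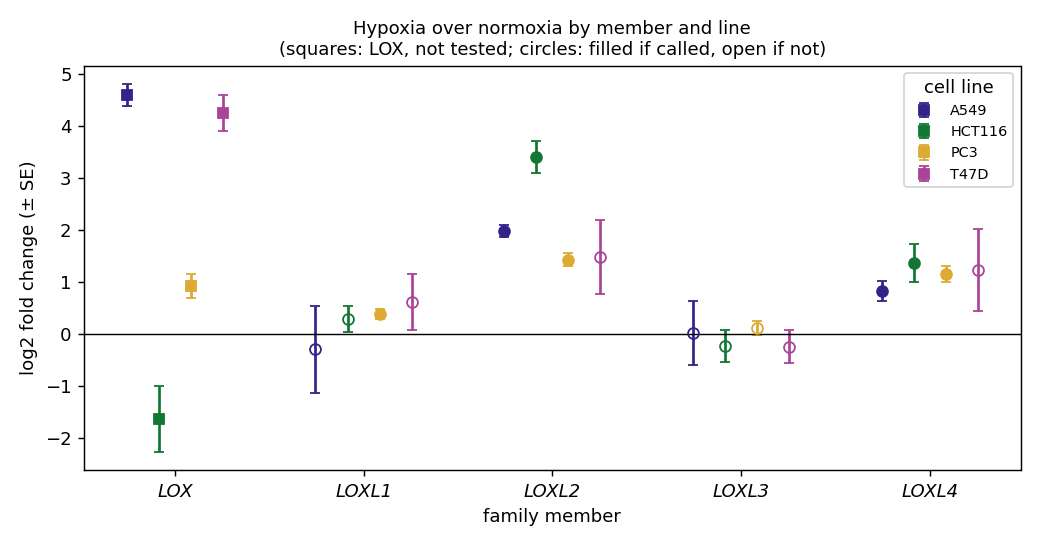
Log2 fold change of each member in hypoxia over normoxia (y axis, with SE) in each cell line (colors). Squares are LOX, which was not tested, and circles are filled where the member was called. LOX ranges from -1.64 in HCT116 cells to 4.60 in A549 cells, LOXL2 and LOXL4 are called in A549, HCT116 and PC3 cells, and LOXL3 in none.

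Levels of different members were compared per kilobase of exon. Summed over the family, the level was 57.2 CPM per kb ± 5.93 in normoxic and 225 ± 6.06 in hypoxic A549 cells (SD, n = 3), and 42.7 ± 0.999 and 84.3 ± 5.00 in PC3 cells. In HCT116 cells, it was 5.25 ± 0.738 and 28.7 ± 11.5, and in T47D cells 0.941 ± 0.0607 and 2.71 ± 0.628. The sum includes LOX, for which the family was chosen. Without LOX, the summed level was 3.90 times as high in hypoxia as in normoxia in A549, 1.98 times in PC3 and 5.60 times in HCT116 cells, without overlap between the states. In T47D cells, the sum without LOX was 0.851 CPM per kb ± 0.0449 in normoxia and 0.938 ± 0.170 in hypoxia (SD, n = 3), with overlap, so that LOX made up nearly the whole difference there. Across lines, T47D cells in hypoxia still lay below each of the other lines in normoxia.

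The lines differed in which member made up the family. LOXL2 made up 97.8% ± 0.386 of the summed level in A549 cells in normoxia and 97.8% ± 0.252 in hypoxia (SD, n = 3). In PC3 cells, LOXL1 held 46.5% ± 3.14 and LOXL2 40.1% ± 4.24 in normoxia, and in hypoxia LOXL1 held 31.2% ± 1.28 and LOXL2 55.3% ± 4.16. In HCT116 cells, the LOXL2 share went from 43.7% ± 3.94 to 85.4% ± 3.87 while the LOXL1 share went from 30.3% ± 5.53 to 7.35% ± 1.83. In T47D cells, LOXL3 held 66.5% ± 9.98 in normoxia, and LOX went from 9.57% ± 2.28 to 64.9% ± 4.37. LOX was the largest part of the family only in hypoxic T47D cells, and although its fold change was largest in A549 cells, it held 1.35% ± 0.266 of their family level in hypoxia.

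**Figure D3:**
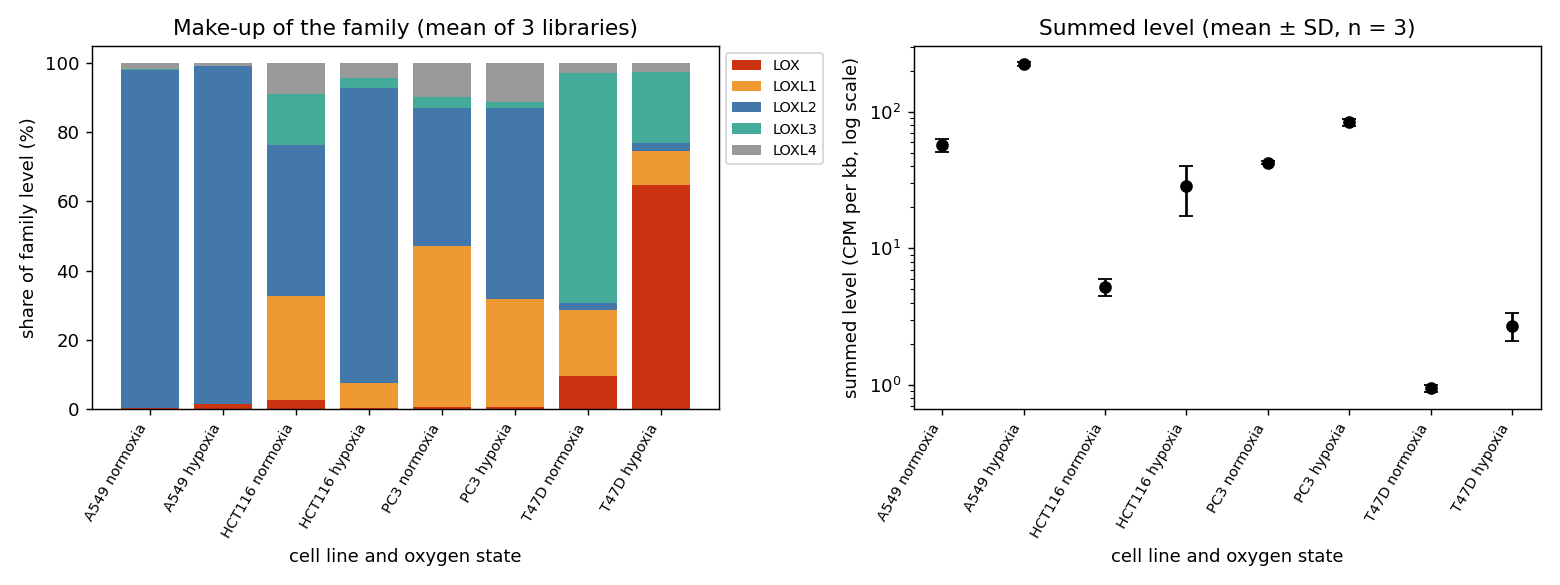
Left, share of each member in the summed family level (%, CPM per kilobase of exon, mean of 3 libraries) for each line and oxygen state. Right, the summed level (CPM per kb on a log axis, mean ± SD, n = 3). LOXL2 fills the A549 bars, LOX fills 64.9% of the T47D bar in hypoxia, and the summed level runs from 0.941 to 225 CPM per kb.

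In normoxia, LOXL1 to LOXL4 differed between most or all pairs of lines. The 6 pairs were tested in one edgeR fit of the 12 normoxic libraries. Because the normoxic LOX values entered the comparisons that chose the family, they are given without a test. For each pair, most genes tested were called, namely 64.9% for A549 against HCT116, 60.0% for A549 against PC3, 66.6% for A549 against T47D, 65.6% for HCT116 against PC3, 68.5% for HCT116 against T47D and 67.8% for PC3 against T47D. Of LOXL1 to LOXL4, 3 were called in HCT116 against T47D and 4 in each of the other pairs.

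The LOX level in normoxia was highest in PC3 cells (1.32 CPM ± 0.0298), followed by A549 (0.704 ± 0.133), HCT116 (0.690 ± 0.404) and T47D cells (0.507 ± 0.146, SD, n = 3). The PC3 libraries lay above each other normoxic library, and the libraries of A549, HCT116 and T47D cells overlapped.

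LOXL1 ran in the order PC3, HCT116, T47D and A549, with 72.1 CPM ± 3.62, 5.79 ± 1.30, 0.631 ± 0.402 and 0.248 ± 0.0273 (SD, n = 3). Each neighbor was called against the next, with 12.5-fold between PC3 and HCT116 (adjusted p = 1.16e-08), 10.0-fold between HCT116 and T47D (adjusted p = 8.55e-08) and 2.38-fold between T47D and A549 (adjusted p = 0.0105). The last of these was lost without replicate 1 (adjusted p = 0.104).

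LOXL2 ran in another order, A549, PC3, HCT116 and T47D, with 335 CPM ± 35.7, 103 ± 12.8, 13.8 ± 3.08 and 0.118 ± 0.0865 (SD, n = 3). The neighbors differed by 3.14-fold (adjusted p = 8.63e-06), 7.48-fold (adjusted p = 2.33e-08) and 109.6-fold (adjusted p = 4.17e-11). The same order held for the LOXL2 levels in hypoxia.

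LOXL3 was highest in PC3 cells (5.84 CPM ± 0.494), followed by HCT116 (3.41 ± 0.354), T47D (2.85 ± 0.596) and A549 cells (0.206 ± 0.0715; SD, n = 3). HCT116 and T47D cells were not shown to differ (log2 difference = 0.32, SE = 0.266, adjusted p = 0.2996). T47D lay 13.6-fold above A549 cells (adjusted p = 3.41e-08), and PC3 lay 1.73-fold above HCT116 cells (adjusted p = 0.0159), a call that was lost without replicate 2 (adjusted p = 0.127) or replicate 3 (adjusted p = 0.0685).

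LOXL4 ran from PC3 (15.1 CPM ± 0.983) through A549 (3.64 ± 0.607) and HCT116 (1.70 ± 0.465) to T47D cells (0.0999 ± 0.109; SD, n = 3). The steps were 4.29-fold (adjusted p = 5.16e-05), 2.06-fold (adjusted p = 0.0131) and 15.9-fold (adjusted p = 9.46e-07). The step between A549 and HCT116 cells was at the threshold without replicate 1 (adjusted p = 0.05002) and not called there. In T47D cells in normoxia, 2 of 3 libraries held at most 3 counts.

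The genes most like each member were found as those with the highest Pearson r of log2 CPM across the 24 libraries, among genes with a mean log2 CPM over 1. The libraries of a group share line and oxygen state, so that r describes these 8 groups and carries no p. For LOX, the 5 genes were SLC2A6 (r = 0.780), EDEM1 (r = 0.777), AGRN (r = 0.763), LRP1 (r = 0.756) and AACS (r = 0.744). These genes were picked for following LOX across the same libraries, so their own values are a description. In HCT116 cells, where LOX was lower in hypoxia, the log2 fold change was -1.19 for EDEM1, which acts in the degradation of misfolded proteins, -0.17 for AGRN, 0.38 for SLC2A6, 0.38 for AACS and 1.14 for LRP1, an endocytic receptor. By Spearman's rho, these genes ranked 2, 3, 8, 1 and 78 among 11270.

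For LOXL2, the 3 genes were RAP1GAP (r = 0.991), TGFB1 (r = 0.988) and SH3KBP1 (r = 0.988). TGFB1 encodes a growth factor that is stored in the matrix, with log2 fold changes of 1.05 in A549, 1.23 in HCT116, 0.81 in PC3 and 1.56 in T47D cells. For LOXL1, the 3 genes were TTC39C (r = 0.965), OASL (r = 0.959) and UAP1 (r = 0.955), and for LOXL4 PRICKLE1 (r = 0.981), AFAP1L1 (r = 0.979) and HOMER3 (r = 0.971). For LOXL3, they were MACC1 (r = 0.980), EPHA1 (r = 0.978) and MAL2 (r = 0.977), which by Spearman's rho ranked only 137, 61 and 91. All 3 were near 0 in A549 cells, where LOXL3 was low. Between members, r was 0.882 for LOXL2 and LOXL4 and 0.800 for LOXL1 and LOXL3, and it lay between -0.29 and 0.10 for LOX with each of the others.

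Genes that act with lysyl oxidases, or that belong to related processes or other enzyme families, were examined as 6 lists. Of 53 genes, 45 were tested in A549, 40 in HCT116, 45 in PC3 and 38 in T47D cells. Upregulated were 24, 17, 17 and 11 of these, and downregulated 4, 4, 2 and 1, to be read against the shares of all genes given above.

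The hydroxylases that modify collagen before cross-linking were mostly upregulated. PLOD1, PLOD2 and PLOD3 hydroxylate the lysines on which lysyl oxidases act, and P4HA1, P4HA2 and P4HA3 with P4HB hydroxylate prolines. Of 7 tested in A549, HCT116 and PC3 cells, 6, 6 and 5 were upregulated, as were 5 of 6 in T47D cells, and none was downregulated. The median log2 fold change was 0.91 in A549, 1.74 in HCT116, 0.63 in PC3 and 1.70 in T47D cells. PLOD2 changed most in HCT116 cells, with 9.19-fold (log2 fold change = 3.20, SE = 0.262, adjusted p = 1.48e-05), and least in PC3 cells, with 1.81-fold (adjusted p = 0.00119). P4HA1 was upregulated 3.51-fold in A549, 7.09-fold in HCT116, 2.01-fold in PC3 and 7.24-fold in T47D cells. P4HB was upregulated in each line, by 1.30-fold (PC3) to 2.42-fold (HCT116), and PLOD3 in A549 (1.35-fold) and HCT116 cells (1.48-fold). P4HA1 and PLOD2 belong to a gene set that the study derived partly from these libraries, and are therefore not independent evidence.

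Of 8 collagen and elastin genes, 7 were tested in A549 cells, where 5 were upregulated and 1 downregulated, and 2 of 5 were upregulated in PC3 cells. None of 2 tested in HCT116 cells and none of 4 in T47D cells was called. Their median log2 fold change was 0.66, -0.08, 0.25 and 0.23 in A549, HCT116, PC3 and T47D cells. COL5A1, a chain of collagen V, was upregulated 2.50-fold in A549 cells (adjusted p = 0.000325) and 3.35-fold in PC3 cells (adjusted p = 0.0206), although its PC3 level was 0.713 CPM in hypoxia against 260 CPM in A549 cells. COL1A1 was upregulated 1.74-fold in A549 (adjusted p = 0.00483) and 1.39-fold in PC3 cells (adjusted p = 0.0270), and COL4A2, a chain of collagen IV, 1.62-fold in A549 cells (adjusted p = 0.0229). COL3A1 was downregulated in A549 cells, from 0.538 to 0.119 CPM (log2 fold change = -2.16, adjusted p = 0.00870), with 21 to 33 counts in normoxia and 4 to 7 in hypoxia. It passed the filter only through normoxia, as COL5A1 did in PC3 cells mainly through hypoxia, where 3 hypoxic libraries and 1 normoxic library exceeded the limit. ELN, which encodes elastin, was tested only in A549 cells and was not called there (log2 fold change = 0.60, adjusted p = 0.373).

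Of 16 genes for processing enzymes and matrix partners, 5 of 11 tested in A549, 5 of 13 in HCT116, 4 of 12 in PC3 and 3 of 10 in T47D cells were upregulated, and 1 was downregulated, in PC3 cells. For these genes, the median log2 fold change was 0.54, 0.48, 0.46 and 0.94. FBLN1, a fibulin of elastic fibers and basement membranes, was upregulated in each line, from 1.55-fold in PC3 cells (adjusted p = 0.00495) to 4.14-fold in T47D cells (adjusted p = 0.00656). FN1, which encodes fibronectin, was upregulated 2.57-fold in A549, 2.49-fold in HCT116 and 1.51-fold in PC3 cells, and had 1.86-fold in T47D cells (adjusted p = 0.0554). BMP1, the protease that removes the LOX propeptide, was upregulated in HCT116 cells (1.73-fold, adjusted p = 0.00487). LTBP4 was upregulated in A549 cells (1.57-fold, adjusted p = 0.00619). THBS1, which encodes thrombospondin 1, fell by 1.10 on the log2 scale in PC3 cells (adjusted p = 0.00354). POSTN, which encodes periostin, had 0 counts in each library.

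Of 10 copper-handling genes, 9 were tested in A549 cells and 10 in each other line. Of these, 3 were upregulated and 2 downregulated in A549 cells, 3 and 3 in HCT116, 2 and 1 in PC3, and 0 and 1 in T47D cells. Over all genes tested, 17.6%, 23.3%, 16.6% and 6.55% were called upregulated in these lines, in the same order. The shares called downregulated were 17.8%, 27.0%, 15.7% and 6.69%. For the copper-handling genes, the median log2 fold change was 0.08, -0.33, -0.06 and -0.11. ATP7A, the pump that loads copper onto secreted enzymes, was upregulated 1.69-fold in A549 (adjusted p = 0.00129) and 1.91-fold in HCT116 cells (adjusted p = 0.00619). MT2A, a metallothionein, was upregulated 3.04-fold in A549 and 1.58-fold in HCT116 cells. ATOX1, the chaperone that carries copper to this pump, was downregulated in HCT116 (log2 fold change = -0.74, adjusted p = 0.00994) and PC3 cells (log2 fold change = -0.39, adjusted p = 0.0243). COMMD1, which acts in copper export and in protein turnover, was downregulated in A549 (log2 fold change = -0.51, adjusted p = 0.00992) and HCT116 cells (log2 fold change = -1.94, adjusted p = 0.000197).

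Of 8 epithelial-mesenchymal genes, 4 of 8 tested were upregulated in A549, 2 of 5 in HCT116, 3 of 8 in PC3 and 1 of 4 in T47D cells, and 1 each was downregulated in A549 and HCT116 cells. The median log2 fold change was 0.31, 0.56, 0.07 and 0.63. CDH1, the epithelial cadherin, was upregulated 2.19-fold in A549, 4.45-fold in HCT116 and 1.45-fold in PC3 cells. VIM, the mesenchymal filament vimentin, was upregulated 2.29-fold in A549, 1.73-fold in PC3 and 3.65-fold in T47D cells, where its level was 3.24 CPM in hypoxia. ZEB1, which represses CDH1, was downregulated in A549 (log2 fold change = -0.44, adjusted p = 0.0151) and HCT116 cells (log2 fold change = -0.85, adjusted p = 0.0156), and ZEB2 was upregulated 1.38-fold in A549 cells (adjusted p = 0.0274).

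PXDN, a peroxidase that cross-links collagen IV by another chemistry, was upregulated in each line, with 3.52-fold in A549 (adjusted p = 4.53e-05), 2.55-fold in HCT116 (adjusted p = 0.000197), 1.40-fold in PC3 (adjusted p = 0.0155) and 1.92-fold in T47D cells (adjusted p = 0.0258). AOC1, a copper amine oxidase of another family that is listed in the counts under its older symbol ABP1, was tested only in T47D cells, where it was upregulated 6.92-fold (adjusted p = 0.00260). AOC2 and AOC3 were not called in any line. Over this list of 4, the median log2 fold change was -0.19, -0.33, 0.24 and 0.48.

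Several of these calls did not hold under each alternative setting or with each library left out. In PC3 cells, the highest adjusted p over the alternatives was 0.257 for ATOX1, 0.188 for CDH1, 0.182 for P4HB, 0.180 for COL1A1, 0.165 for FN1, 0.108 for PXDN and 0.0826 for COL5A1. In T47D cells, the calls of P4HB, PXDN, VIM and FBLN1 were lost without normoxia replicate 1 (adjusted p, 0.223, 0.172, 0.0902 and 0.0775). Those of P4HB, PXDN and FBLN1 were also lost there without normoxia replicate 2. P4HB and PXDN were lost without hypoxia replicate 1 or hypoxia replicate 2 as well, and PXDN with total-count scaling. In A549 cells, the highest adjusted p was 0.442 for ZEB2, 0.226 for COMMD1, 0.196 for ZEB1, 0.147 for COL4A2, 0.0767 for COL3A1, 0.0731 for LTBP4, 0.0672 for PLOD3 and 0.0670 for P4HB. In HCT116 cells, the highest was 0.0824 for MT2A, 0.0766 for ATOX1, 0.0741 for ZEB1 and 0.0656 for PLOD3. The calls of P4HA1 and PLOD2 held under each alternative in each line.

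**Figure D4:**
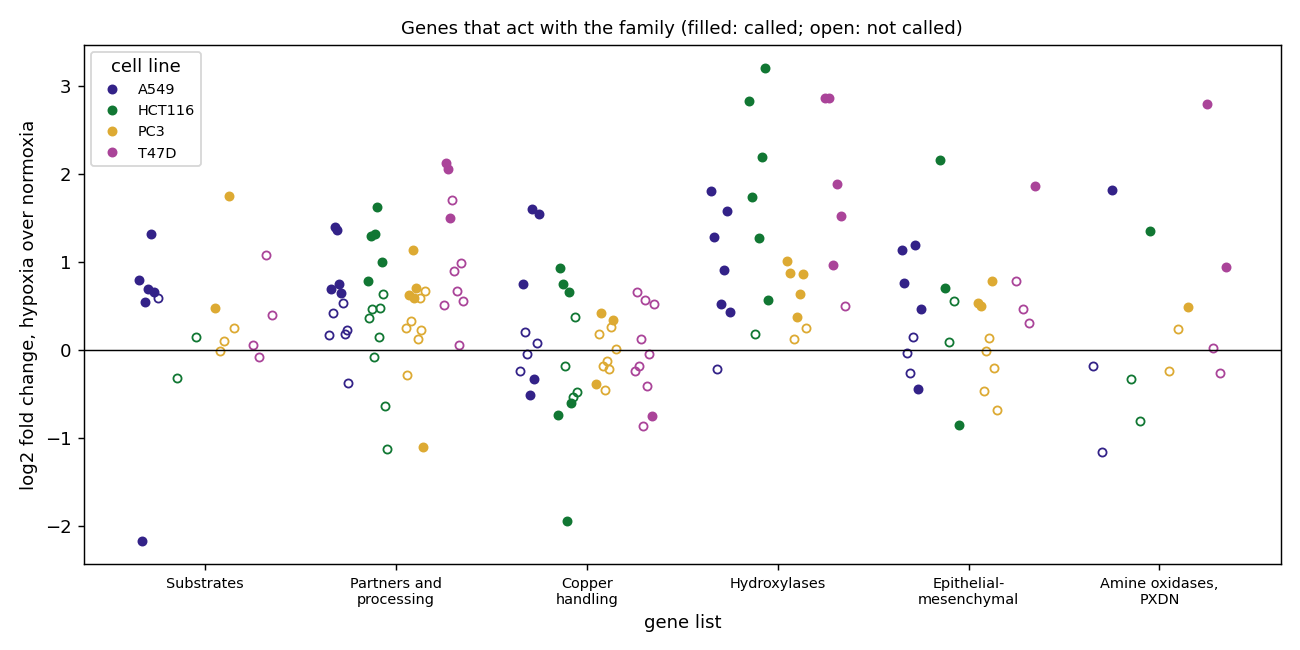
Log2 fold change in hypoxia over normoxia (y axis) of each tested gene of the 6 lists (x axis), colored by cell line, with filled points for called genes. Most hydroxylases are called upward in each line, and they reach 3.20 (PLOD2 in HCT116 cells), while the copper-handling genes lie on both sides of 0.

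The gene models of the 5 members, from GENCODE annotation on GRCh37, the build of the counts, place LOX on chromosome 5 (121398890 to 121414108, minus strand, 5596 bases of exon), LOXL1 on chromosome 15 (74218330 to 74244478, plus strand, 3637 bases), LOXL2 on chromosome 8 (23154410 to 23282841, minus strand, 5985 bases), LOXL3 on chromosome 2 (74759385 to 74782817, minus strand, 4519 bases) and LOXL4 on chromosome 10 (100007447 to 100027951, minus strand, 3597 bases). Exons of LOXL3 and HTRA2, which encodes a mitochondrial protease, overlap on opposite strands over 936 bases, 20.7% of the exon length of LOXL3, so that the level of LOXL3 is uncertain. DOK1, an adaptor of tyrosine kinases, shares 216 bases with LOXL3 on the opposite strand, and ENTPD4 shares 120 bases with LOXL2 on the same strand. HTRA2 was not called in any line (log2 fold change = -0.33 to -0.08). ENTPD4 was called in PC3 cells only (log2 fold change = 0.32, adjusted p = 0.0240) and DOK1 in A549 cells only (log2 fold change = 0.55, adjusted p = 0.0358). LOXL1, LOXL2 and LOXL4 also overlap long noncoding RNAs on the opposite strand, over 335, 178 and 152 bases of exon, which were not analyzed here.

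Lysyl oxidases are abundant in fibroblasts, so markers of other cell types were read beside these values. Of 9 fibroblast markers, DCN, LUM, PDGFRA, PDGFRB, THY1, FAP, COL1A1, COL1A2 and COL3A1, no more than 2 reached 1 CPM in any group, and COL1A1 led the list. Without COL1A1, the other 8 summed to between 0.0411 and 0.410 CPM in HCT116, 0.668 and 2.13 CPM in PC3, 0.582 and 1.76 CPM in T47D and 10.0 and 15.3 CPM in A549 cells, with overlap between the oxygen states in each line. The whole list overlapped between states in A549, HCT116 and T47D cells, but summed to 12.4 to 16.5 CPM in normoxic and 18.3 to 22.3 CPM in hypoxic PC3 cells. DCN was at 0 counts in A549 and HCT116 libraries. The 3 endothelial markers summed to at most 2.77 CPM in any library, and were also higher in hypoxia in PC3 cells (0.695 to 1.21 CPM against 1.32 to 2.77 CPM). Their sum was higher in hypoxia in HCT116 cells too (0.0737 to 0.111 CPM against 0.247 to 0.594 CPM). It overlapped between states in A549 and T47D cells. The part of either list in the PC3 values of the family, or of the endothelial list in the HCT116 values, was not tested. PTPRC, the leukocyte marker, reached at most 0.293 CPM. The epithelial genes EPCAM, KRT8 and KRT18 exceeded 1 CPM in each group. ESR1, PGR, GATA3 and KRT19 were expressed in T47D and CDX2 in HCT116 cells, whereas the prostate genes KLK2 and KLK3 were at 0 counts in PC3 cells and the 4 lung genes NKX2-1, SFTPB, SFTPC and NAPSA summed to at most 0.715 CPM in any A549 library.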

How the data were processed

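RNA-seq was analyzed in 24 libraries, 3 for each of 4 cell lines in normoxia and hypoxia. The deposited values are raw read counts per gene, which the authors made from polyA-selected, directional libraries with Trim Galore 0.3.3, HISAT2 2.05 against GRCh37, Picard 2.0.1 and HTSeq 0.5.4p3 (intersection-strict, UCSC genes). The strand setting of HTSeq is not given in the sources used here. That counting mode discards reads that fit 2 genes, which can lower both where genes overlap.

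Counts were tested with edgeR 4.0.16 in R 4.3.3 (filterByExpr, TMM, quasi-likelihood F test, Benjamini-Hochberg adjustment). Hypoxia was compared with normoxia in a separate fit for each line, the difference between lines as an interaction in a fit of all 24 libraries, and the 6 pairs of lines in a fit of the 12 normoxic libraries. A call required an adjusted p below 0.05 and, except for the interaction, over 1.2-fold change. The SE is the log2 fold change divided by the square root of its F. Levels are CPM with TMM factors from 0.856 to 1.18, and log2 CPM used a prior count of 2. Levels of different genes were divided by the kilobases of all annotated exons. Promoters and gene models came from RefSeq and GENCODE.

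The replicate numbers were checked by the correlation, between oxygen states, of deviations from the group means. It exceeded 0.1 for each number only in T47D cells (0.154, 0.326 and 0.304), where the pairing therefore comes from the data and not from the labels. With the replicate block, T47D cells had 2766 calls in place of 1864, and no call of a family member changed.

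The family members and the gene lists were chosen with earlier results of these data known. In each list, the genes named were those with the highest and the lowest mean log2 fold change over lines among called genes, while ELN, BMP1, POSTN, AOC2 and AOC3 were named after their values were seen, as were genes that overlap a member. The genes most like a member were ranked by Pearson r. The tests were tried on simulated data first. DESeq2 1.42.0, other scalings (RLE size factors, total counts), other filters (none, or a minimum mean count of 50), a replicate block, a single fit to all 24 libraries and the omission of each library were tried as alternatives. Lengths of the longest transcript were tried for shares of the family.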

Additional observations from a re-analysis of the deposited data

Results flagged for a closer look

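The hypoxia effect on LOXL2 differed between the 4 lines in edgeR's interaction test (adjusted p = 0.00198), with log2 fold changes of 3.40 in HCT116, 1.98 in A549, 1.48 in T47D and 1.43 in PC3 cells. Without replicate 2 of each group the adjusted p was 0.207, and it ranged from 3.59e-06 to 0.207 over 9 alternatives.

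LOX went opposite ways between lines. The HCT116 libraries moved down (log2 fold change, -1.64), with each hypoxic library below each normoxic one, while those of A549, PC3 and T47D cells moved up. In HCT116 cells, the lowest normoxic library (0.2997 CPM) and the highest hypoxic library (0.288 CPM) lay within counting error. The HCT116 value was -1.06 without normoxia replicate 1. The difference between lines was not tested, because the family was chosen by it.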

How the results depend on the processing

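Of 584 checks of a family member under an alternative, 556 kept the direction and, where a call was compared, the call. For the hypoxia values of LOX, which are given without a test, no call was compared. A call was lost in 9 checks and gained in 3. Some of these were comparisons of LOX between lines in normoxia, which are given without a test. In 1 further check, without normoxia replicate 1, the LOX value in HCT116 cells moved to -1.06. The 15 that changed sign concerned values that were not called or that have no test. LOXL3 in A549 cells (0.01) became -0.10 with total-count scaling and -0.049 with the replicate block, and ranged from -0.27 to 0.39 with 1 library left out. LOXL1 in A549 cells (-0.30) ranged from -1.63 to 0.32. For LOX in normoxia, A549 over HCT116 (-0.00) became 0.017 with RLE size factors, 0.0069 without a filter, 0.046 with the replicate block, 0.0032 with one fit of all libraries and 0.017 with DESeq2, and ranged from -0.29 to 0.34 with 1 replicate left out, while HCT116 over T47D ranged from -0.071 to 1.11. The cause of these changes was not tested.

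Counts of calls over all genes moved more. With one fit of all libraries there were 2609 in A549, 1292 in PC3 and 3830 in T47D cells, in place of 4928, 4346 and 1864. With 1 library left out, they ranged from 3109 to 5331 in A549, 5339 to 6819 in HCT116, 2183 to 5361 in PC3 and 199 to 3305 in T47D cells. For A549, the lowest was without normoxia replicate 2. For PC3, it was 2183 without hypoxia replicate 1, 2198 without hypoxia replicate 2 and 2651 without normoxia replicate 1. The interaction had 2940 calls, 4438 with DESeq2, 636 without replicate 1 and 165 without replicate 2, and at most 2478 with 1 replicate left out. With the replicate block, calls were 5002 in A549, 7684 in HCT116, 4587 in PC3 and 3691 for the interaction. In A549, HCT116 and PC3 cells the labels give only a shared number, and each sample correlated best with its own number except A549 replicate 2. The correlations in HCT116 cells were 0.289, 0.225 and 0.0703, so that a pairing there is not settled. At a mean count of at least 50, low members were not tested. Shares of the family with the longest transcript were 0.626 to 1.39 times those given. Low counts limit LOXL2 and LOXL4 in T47D cells, LOXL1 and LOXL3 in A549 cells and LOX in HCT116 cells.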
